A study of Homo sapiens with 34 samples.

Results

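Eosinophil granule genes were followed through the blood differentiation of human embryonic stem cells. The set held 7 genes, PRG2, PRG3, EPX, CLC, RNASE2, RNASE3 and IL5RA, taken by gene name from a table of 20255 genes, and all 7 passed the filter on low values that left 19788 genes for testing. RNA was sequenced from 34 samples of H1, an established human embryonic stem cell line, in 12 populations with 3 biological replicates each except undifferentiated H1, which had 1 sample. H1 cells were grown into embryoid bodies (EBs, day 0), given BMP4 with human VEGF and then human VEGF alone, with no blood cytokine added. The unsorted populations were undifferentiated H1, day 0 EBs, day 2 cells and day 4 cells. The sorted populations were CD43- and CD43+ cells on days 6, 9 and 12, and CD43-CD45- and CD43+/CD45+ cells on day 16. The sort thus changed at day 16, and in any comparison of day 12 with day 16 the day and the sort cannot be told apart. CD43 (gene SPN) is a sialoglycoprotein of early blood cells and CD45 (gene PTPRC) is the phosphatase found on most white blood cells. All populations came from a single cell line and were measured in bulk, so that fewer cells of a type and less RNA per cell cannot be told apart.

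Eosinophils are granulocytes that pack toxic cationic proteins into specific granules around a crystalloid core. PRG2 encodes the major basic protein of that core and PRG3 its homologue, EPX encodes eosinophil peroxidase, and RNASE2 and RNASE3 encode the ribonucleases known as eosinophil-derived neurotoxin and eosinophil cationic protein. CLC encodes the Charcot-Leyden crystal protein, a galectin held in the cytoplasm, and IL5RA encodes the alpha chain of the interleukin-5 receptor on the cell surface, so that these last genes are eosinophil genes without being granule contents. Several of the set are also transcribed outside eosinophils: basophils make most of them, neutrophils and monocytes make the ribonucleases, and placental trophoblast makes PRG2. In textbook accounts the granule genes are switched on in eosinophil promyelocytes under GATA1, C/EBP factors and PU.1, before the late surface molecules appear.

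Coordinates are those of GRCh38 and were the same in the deposited table and in GENCODE release 29, which lists all 7 as protein-coding. PRG3 (ENSG00000156575, chr11:57376769-57381150) and PRG2 (ENSG00000186652, chr11:57386794-57390657) lie on the minus strand with 5643 bases between them. RNASE3 (ENSG00000169397, chr14:20891399-20892348) and RNASE2 (ENSG00000169385, chr14:20955452-20956436) lie on the plus strand with 63103 bases between them. EPX (ENSG00000121053, chr17:58192737-58205174) is on the plus strand, whereas CLC (ENSG00000105205, chr19:39731250-39738028) and IL5RA (ENSG00000091181, chr3:3066326-3126613) are on the minus strand. RP11-872D17.8 (chr11:57387365-57424059), on the same strand as PRG2, shared exonic sequence with it: 43% of the exonic bases of PRG2 were also exonic in another gene of that strand. Whether the counting used strand is not given in the sources used here, and reads in that stretch could be divided between the pair. RP11-872D17.8 had values of 682, 799 and 1114 in day 12 CD43+ cells and of 1700, 1478 and 1752 in day 16 CD43+/CD45+ cells, and it was itself called higher in CD43+ cells on days 6, 9, 12 and 16 (3.50 to 4.97). Of the stretches of 50 bases in their transcripts, 3.26% of those of RNASE2 and 5.37% of those of RNASE3 also occurred in each other or in AL355922.1, and 1.52% of those of IL5RA occurred in CNTN4-AS1, so a small share of their values is uncertain. PRG3, EPX and CLC had no such stretch in common with another gene.

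The bases just upstream of the RefSeq start sites (GRCh38.p14) are shown because these genes moved together, for the 5 members with an entry in the promoter table. Each is written 5′ to 3′ on the strand of its gene. Of the RNASE2 window the 215 bases outside annotated exons are shown, and the IL5RA window lies within the span of the gene in the deposited table, upstream of the RefSeq start site. Capitals mark matches, on either strand, to any of the 4 GATA motifs searched (TGATAA, with its variant AGATAA, and TGATAG, with its variant AGATAG), the C/EBP motif (TTGCNNAA), the PU.1 motif (AGGAAG) and the TATA box (TATAAA). The motifs were chosen with these sequences in view.
PRG3, chr11:57381151-57381400, minus strand: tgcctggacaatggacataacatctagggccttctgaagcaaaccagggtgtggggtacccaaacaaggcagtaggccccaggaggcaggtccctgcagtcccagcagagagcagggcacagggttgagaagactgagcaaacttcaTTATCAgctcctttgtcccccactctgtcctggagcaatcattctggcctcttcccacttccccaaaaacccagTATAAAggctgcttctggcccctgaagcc
RNASE2, chr14:20955237-20955451, plus strand: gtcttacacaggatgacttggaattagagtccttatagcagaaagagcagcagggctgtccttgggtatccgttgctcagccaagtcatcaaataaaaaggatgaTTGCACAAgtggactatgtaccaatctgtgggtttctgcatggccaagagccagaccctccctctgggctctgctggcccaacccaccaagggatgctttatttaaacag
RNASE3, chr14:20891135-20891384, plus strand: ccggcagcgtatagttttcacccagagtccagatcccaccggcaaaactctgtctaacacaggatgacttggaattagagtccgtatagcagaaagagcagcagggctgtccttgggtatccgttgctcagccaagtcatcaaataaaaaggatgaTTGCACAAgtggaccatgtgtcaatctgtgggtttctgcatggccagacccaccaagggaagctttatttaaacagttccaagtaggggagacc
CLC, chr19:39738030-39738279, minus strand: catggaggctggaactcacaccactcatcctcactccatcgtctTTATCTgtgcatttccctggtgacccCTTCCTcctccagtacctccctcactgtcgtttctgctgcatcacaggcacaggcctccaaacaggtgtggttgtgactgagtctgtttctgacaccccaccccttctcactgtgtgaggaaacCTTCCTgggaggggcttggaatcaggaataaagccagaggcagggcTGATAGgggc
IL5RA, chr3:3110375-3110624, minus strand: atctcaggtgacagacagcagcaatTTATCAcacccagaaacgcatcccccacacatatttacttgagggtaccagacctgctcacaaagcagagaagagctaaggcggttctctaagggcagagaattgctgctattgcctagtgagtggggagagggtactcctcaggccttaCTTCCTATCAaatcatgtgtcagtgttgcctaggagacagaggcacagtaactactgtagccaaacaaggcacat

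A GATA motif was present in 3 of the 5 windows of 250 bases (PRG3, CLC and IL5RA) and in 22.3% of the 35116 windows of the same length in the table. The C/EBP motif was present in RNASE2 and RNASE3, against 9.05% of all windows, and the PU.1 motif in CLC and IL5RA, against 28.7%. The TATA box letters occurred in PRG3 alone of the 5, against 10.7% of all windows. In IL5RA the PU.1 match and a GATA match overlapped. The windows of RNASE2 and RNASE3 aligned over 199 bases, 192 of them identical (96.5%), and the C/EBP match of both lay in that stretch. A match of letters is a description and was not tested as a binding site.

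Values are the deposited tag counts after the authors' normalization for GC content, which gave every sample the same total of 17856940 and the same median of 197, so that the depth behind a value is unknown and no counting interval is given. The scale has a ceiling: in each sample 10 genes held the highest value, 90700, and 10 more lay between 47984 and 48061. Differences are given as log2(value + 1), fitted by limma over the 33 replicated samples, and a gene was called when its Benjamini-Hochberg adjusted p was below 0.05 over all genes tested and its fold above 4. SPN ranged from 5979 to 8780 in day 6 CD43+ cells and from 19 to 49 in day 6 CD43- cells. On day 16 it was 2338 to 2870 in CD43+/CD45+ cells and 84 to 328 in CD43-CD45- cells, and PTPRC was 10084 to 15868 and 18 to 42.

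The major basic protein gene PRG2 was detected in CD43+ cells from day 6, when its homologue PRG3 was near 0. PRG2 did not exceed 14 in any unsorted sample and stood at 146, 71 and 58 in the 3 day 6 CD43+ samples. RP11-872D17.8, which shares exonic sequence with PRG2, stood at 34, 40 and 63 in the same samples. These early values of PRG2 are therefore less certain than its late ones, and how reads were divided between the pair was not tested. The CD43+ samples of day 9 held 1378, 3460 and 989 and those of day 12 held 20431, 48061 and 48061. The CD43+/CD45+ samples of day 16 held 90700, 37190 and 48061. PRG2 thus stood at one of the top levels of the scale in 4 of the 6 late CD43+ samples, where differences are compressed, and the late populations overlapped. Its homologue PRG3 was listed at 0 in day 2 and day 4 cells and was 10, 4 and 2 in day 6 CD43+ cells. PRG3 then stood at 192, 274 and 150 in the day 9 samples, at 2618, 4850 and 4615 in those of day 12 and at 8684, 5644 and 9501 in those of day 16, with no overlap between these days.

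EPX, which makes hypobromous acid from hydrogen peroxide, was near 0 until day 9. Among CD43+ cells EPX was 0, 4 and 4 at day 6 and 32, 148 and 34 at day 9. It then reached 3172, 5292 and 4269 (day 12) and 10397, 6121 and 10397 (day 16). Day 9 was the first CD43+ population in which all 3 samples of EPX lay above every unsorted sample, of which the highest was 4.

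The ribonuclease genes were not detected in the first CD43+ cells. RNASE2 was listed at 0 in all 3 day 6 CD43+ samples and stood at 198, 186 and 212 on day 9. RNASE2 then held 3244, 4786 and 5558 by day 12 and 5251, 4329 and 8680 by day 16, and the late populations overlapped. RNASE3, whose product also kills bacteria, was likewise listed at 0 in day 6 CD43+ cells. The 3 samples stood at 38, 26 and 24 by day 9, at 1063, 1336 and 1520 by day 12 and at 1252, 962 and 1842 by day 16. For both ribonucleases the 3 samples of day 9 lay far below those of day 12.

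CLC was the only member with values above 10 in all 4 samples of H1 and EBs. It was 16 in undifferentiated H1 and 20, 16 and 18 in day 0 EBs, against 0, 6 and 0 in day 2 cells, and the day 0 and day 2 samples did not overlap. CLC was listed at 0 in CD43+ and CD43- cells of day 6, and was 214, 404 and 142 in day 9 CD43+ cells. Day 12 CD43+ cells held 3186, 3420 and 3205, and day 16 CD43+/CD45+ cells 3205, 1934 and 6244. The late populations again overlapped, and the spread was far wider on day 16.

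IL5RA was low until day 12. It was 14, 22 and 19 in day 6 CD43+ cells, above all unsorted samples (at most 6), and 38, 84 and 24 in day 9 CD43+ cells. On day 12 it stood at 296, 652 and 618 and on day 16 at 1888, 1215 and 1292, with no overlap between the days.

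**Figure D1:**
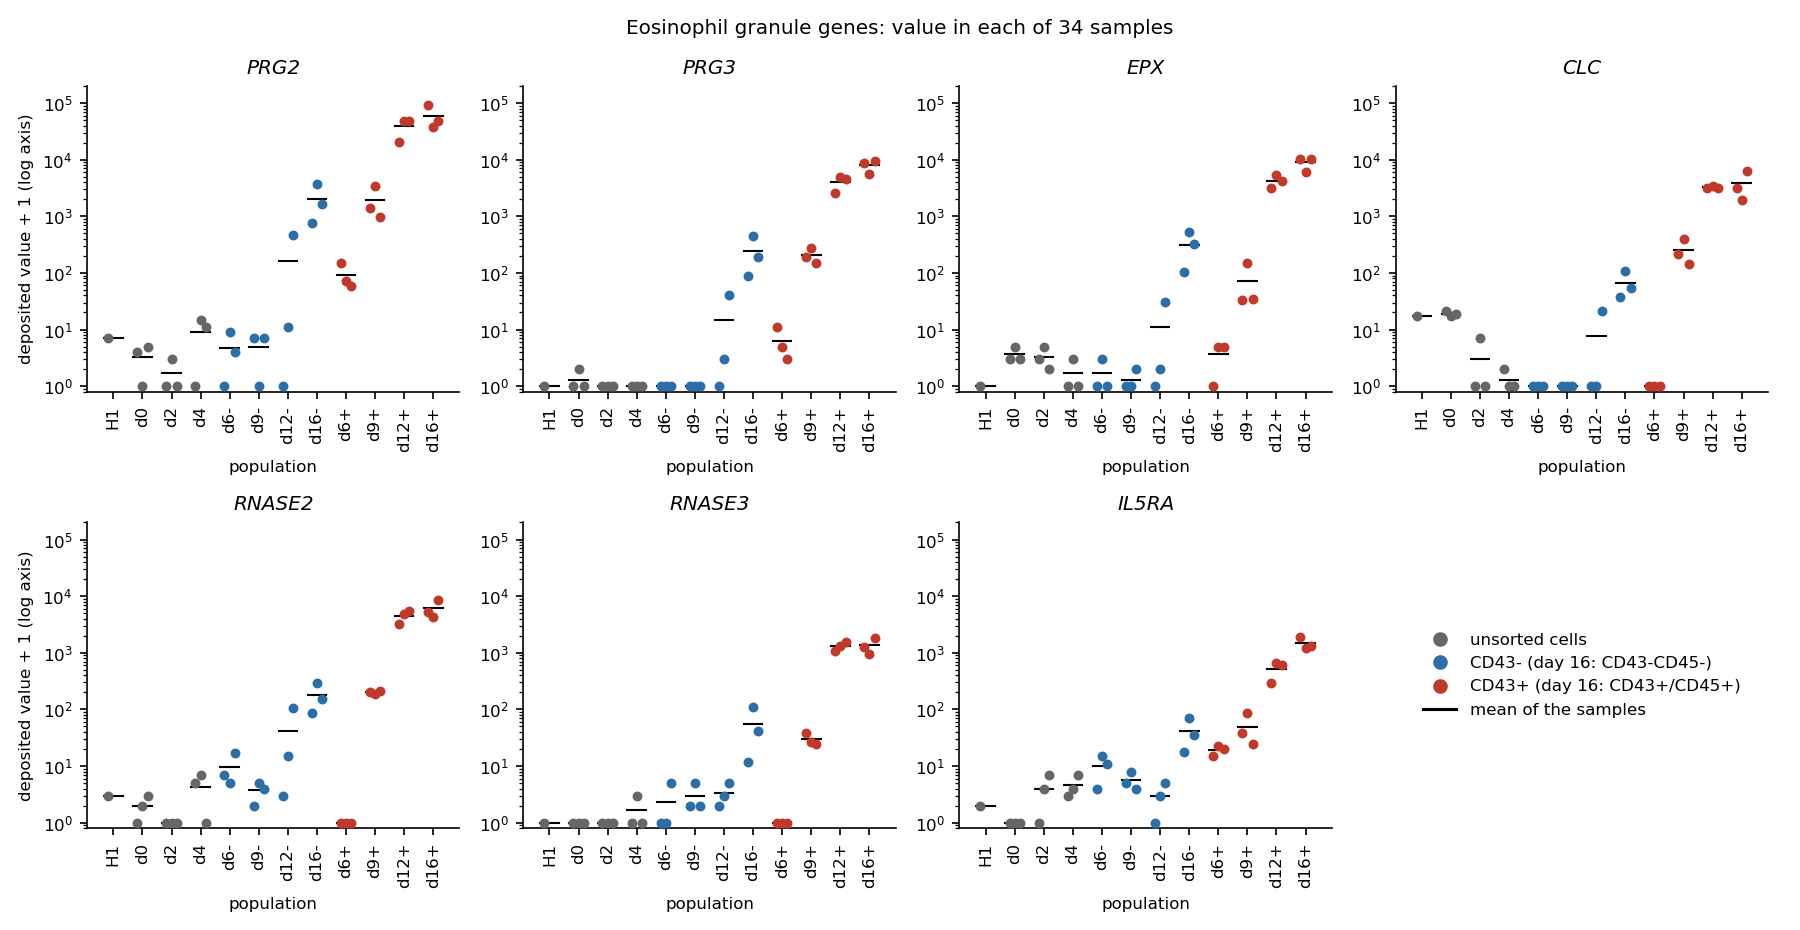
Deposited value plus 1 (log axis) of each member in every sample, by population (x axis: H1, days 0 to 4 unsorted, then CD43- and CD43+ cells by day), with a point per sample and a line at the mean. The CD43+ points (red) climb from day 6 to day 12 in all 7 panels, and the CD43- points (blue) stay low until day 12 and are higher on day 16.

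By mean value, day 16 CD43+/CD45+ cells ranked first and day 12 CD43+ cells second for all 7 members. These neighbours overlapped for PRG2, CLC, RNASE2 and RNASE3 and did not overlap for PRG3, EPX and IL5RA. The third place went to day 16 CD43-CD45- cells for PRG2, PRG3, EPX and RNASE3, and to day 9 CD43+ cells for CLC, RNASE2 and IL5RA. These populations overlapped for every member except CLC, for which day 9 CD43+ cells, with a mean of 253.3, lay above day 16 CD43-CD45- cells, with a mean of 66.0. For the 6 members other than RNASE2 both lay above day 12 CD43- cells without overlap, whereas for RNASE2 day 16 CD43-CD45- cells overlapped day 12 CD43- cells.

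CD43+ cells were compared with CD43- cells of the same day to ask when the set separated blood cells from the rest of the culture. Of the 7 members, 2 passed as higher and 1 as lower in the CD43+ cells of day 6, against 4.69% of all genes tested called higher and 7.85% called lower. PRG2 was higher by 4.69 ± 1.35 (limma SE, n = 3 and 3) with an adjusted p of 0.00503. PRG3 was called with an adjusted p of 0.00906, but CD43- cells were listed at 0 and no fold is given. RNASE2 was the member called lower, at 0 in CD43+ cells against 6, 4 and 16 in CD43- cells (adjusted p = 0.00233). These values are near 0, and neither PRG3 nor RNASE2 was called with a pseudocount of 10.

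On days 9, 12 and 16 all 7 members were called higher in CD43+ cells, and no CD43- sample reached any CD43+ sample of its day. The background was 8.65% of all genes called higher on day 9, 11.8% on day 12 and 12.2% on day 16. On day 9 the differences of the 5 members with values in both populations ran from 3.01 ± 0.65 for IL5RA to 8.84 ± 1.35 for PRG2, while PRG3 and CLC were listed at 0 in CD43- cells. On day 12 they ran from 7.64 ± 0.65 for IL5RA to 11.03 ± 1.35 for PRG2. On day 16 the differences drew together, from 5.03 ± 1.35 for PRG2 to 5.80 ± 0.78 for CLC. The highest adjusted p of the 7 came to 0.000219 at day 9, 4.93e-08 at day 12 and 0.00183 at day 16.

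**Figure D2:**
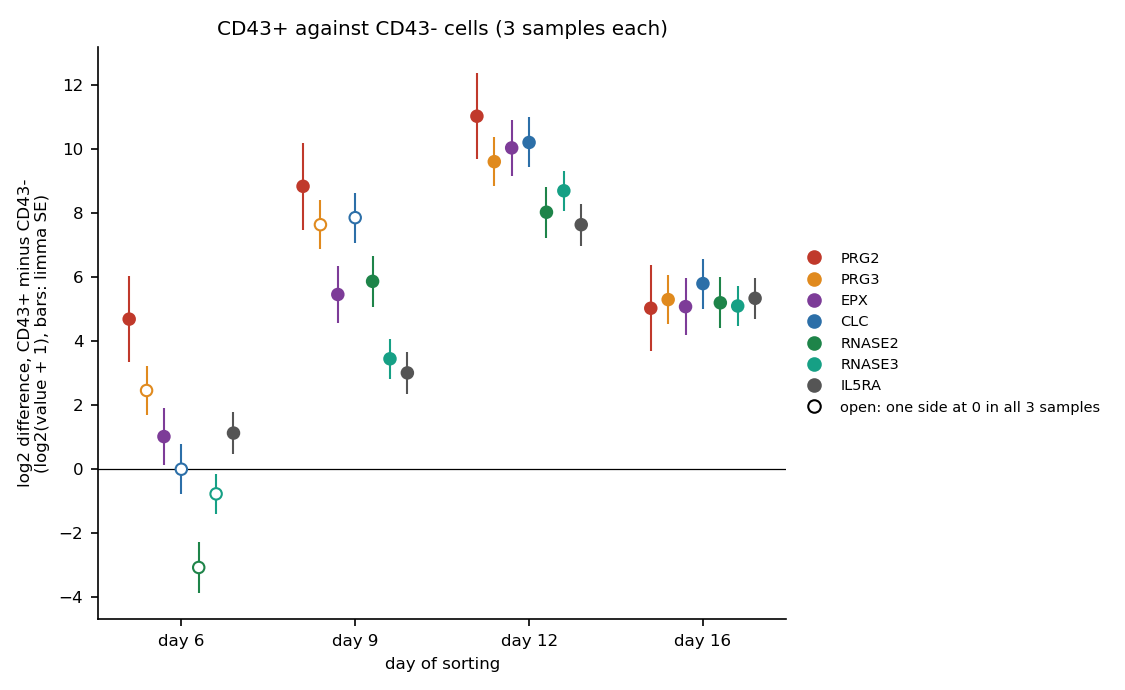
Difference between CD43+ and CD43- cells in log2(value + 1) for each member (y axis) by day of sorting (x axis), with limma standard errors and 3 samples per population. Open points have a population listed at 0 in all its samples, and the differences peak on day 12, at 7.64 to 11.03, and lie between 5.03 and 5.80 on day 16.

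The change of the CD43 difference between days was tested as an interaction. For the step from day 12 to day 16 it also holds the change of the sort to CD43 with CD45. From day 6 to day 9 it was called higher for PRG3, EPX, CLC, RNASE2 and RNASE3, 5 of 7 members against 3.21% of all genes. From day 9 to day 12 it was called higher for EPX (4.57 ± 1.24, adjusted p = 0.00666), RNASE3 (5.25 ± 0.87, adjusted p = 5.26e-05) and IL5RA (4.64 ± 0.92, adjusted p = 0.000388), against 4.61% of all genes. From day 12 to day 16 it was called lower for PRG2, PRG3, EPX, CLC and RNASE3, against 2.17% of all genes, and the estimate was below 0 for the others too (RNASE2 -2.83 ± 1.14, adjusted p = 0.0862, and IL5RA -2.30 ± 0.92, adjusted p = 0.0840). Of these 5 calls, 2 (PRG3 and CLC) were made with a pseudocount of 0.1 and 1 (RNASE3) with only the populations compared in the fit, and with the replicate block by day PRG2 was not called (adjusted p = 0.05476) and IL5RA was (adjusted p = 0.03965).

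The CD43+ cells of successive days were compared next, to date the rise. Against unsorted day 4 cells, PRG2, PRG3 and IL5RA were called higher in day 6 CD43+ cells, 3 of 7 members against 6.80% of all genes. IL5RA was higher by 2.12 ± 0.65 (adjusted p = 0.00773) and PRG2 by 3.96 ± 1.35 (adjusted p = 0.0154), while PRG3 was listed at 0 in day 4 cells. Leaving out either day 4 replicate 1 or day 6 CD43+ replicate 1 left 1 member called. From day 6 to day 9, 6 of 7 rose, against 3.56% of all genes. PRG2 rose by 4.30 ± 1.35 (adjusted p = 0.0161), EPX by 4.25 ± 0.88 and PRG3 by 5.19 ± 0.76, and CLC, RNASE2 and RNASE3 came up from 0. IL5RA was not called at this step (1.20 ± 0.65, adjusted p = 0.178).

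From day 9 to day 12 all 7 rose, against 8.45% of all genes, by 3.50 ± 0.65 for IL5RA to 6.22 ± 0.88 for EPX, the peroxidase. The adjusted p was at most 0.00676. From day 12 to day 16 none of the 7 was called by limma, against 3.79% of all genes called higher and 5.26% called lower, and at an unadjusted p under 0.05 there was 1, IL5RA (1.54 ± 0.65, adjusted p = 0.0573). The estimates for the others ran from 0.01 ± 0.62 for RNASE3 to 1.07 ± 0.88 for EPX. A p above the threshold does not show that the levels held, since the standard errors were 0.62 to 1.35. The sort also changed at this step, from CD43+ to CD43+/CD45+ cells.

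In the CD43- cells of days 6 and 9 no member exceeded 16. From day 6 to day 9 none of the 7 was called by limma, against 1.10% of all genes called higher, and none had an unadjusted p under 0.05. From day 9 to day 12, PRG3 (adjusted p = 0.0190) and RNASE2 (2.30 ± 0.80, adjusted p = 0.0258) were called higher, against 4.52% of all genes. Both calls rested on day 12 CD43- replicate 3: PRG3 was 0, 2 and 40 and RNASE2 was 2, 14 and 106 in the 3 samples, and without replicate 3 none of the 7 was called. PRG2 showed the same pattern at 0, 10 and 473, and EPX at 0, 1 and 30. Replicate 3 was the highest of the 3 samples for all 7 members.

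From day 12 to day 16 all 7 members rose in the cells lacking CD43, against 4.46% of all genes. Because the sort changed here from CD43- to CD43-CD45- cells, day and sort cannot be told apart. PRG2 stood at 765, 3658 and 1674 in day 16 CD43-CD45- cells, PRG3 at 88, 453 and 187, and EPX at 102, 521 and 318. RNASE2 was 86, 296 and 152, RNASE3 was 11, 108 and 41, CLC was 36, 108 and 54, and IL5RA was 17, 70 and 34. Replicate 2 was highest and replicate 1 lowest for all 7, and 6 of the 7 members had every day 16 sample above every day 12 sample, RNASE2 being the exception. The estimates ran from 3.23 ± 0.80 for RNASE2 to 6.59 ± 1.35 for PRG2, and the adjusted p was at most 0.00186.

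**Figure D3:**
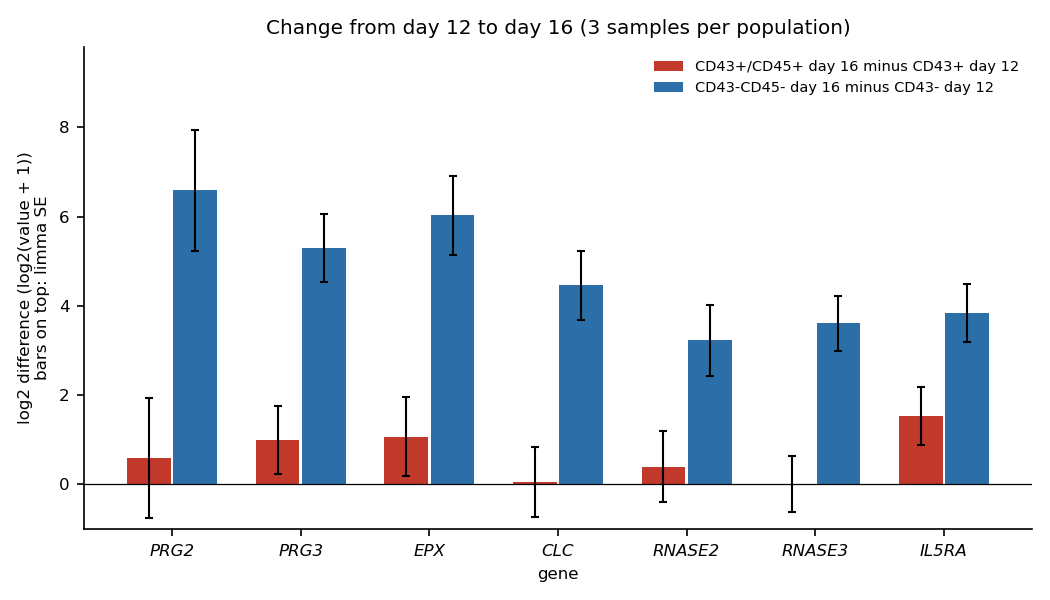
Change from day 12 to day 16 in log2(value + 1) for each member (y axis), in CD43+ cells (red) and CD43- cells (blue), with limma standard errors and 3 samples per population. The blue bars stand between 3.23 and 6.59 and the red bars between 0.01 and 1.54. Day 16 cells were sorted on CD45 as well, so day and sort cannot be told apart.

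Relative to the mean of the CD43+ cells of the same day, the CD43- level was similar across the members on day 16. It averaged 3.47% for PRG2, 3.06% for PRG3, 3.50% for EPX, 2.92% for RNASE2, 3.94% for RNASE3, 2.75% for IL5RA and 1.74% for CLC. On day 12 the same shares lay between 0.179% for RNASE3 and 0.898% for RNASE2. In single day 16 samples, replicate 1 ranged from 0.814% to 1.41% over the members, replicate 2 from 2.85% to 7.99% and replicate 3 from 1.42% to 3.54%. For PRG2, whose CD43+ values were compressed at the top of the scale, the share may be overstated.

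Markers of other blood cells moved with these samples. The summed value of 11 neutrophil granule genes in day 16 CD43-CD45- cells was 6198 to 20498, or 3.78%, 12.5% and 7.62% of the CD43+ mean in replicates 1, 2 and 3, and all 11 were detected. MPO, among the 11, held 4657 to 12840 of these sums. It stood at the top value of 90700 in every day 12 and day 16 CD43+ sample, so the neutrophil shares of both days may be overstated. The 5 megakaryocyte markers came to 8.10%, 24.5% and 12.4%, and SPN to 3.15%, 12.3% and 4.57%, with replicate 2 highest in each. PTPRC, the other sort gene, came to 0.142%, 0.332% and 0.174%, below the share of every member in the same replicate, and its level in CD43- cells was not called from day 12 to day 16 (-1.43 ± 0.92, adjusted p = 0.2095). The 9 macrophage markers came to 2.09%, 2.91% and 2.52%, and their defining gene C1QC was 24, 20 and 24 in CD43-CD45- cells against 6584 to 8970 in CD43+/CD45+ cells. On day 12 the neutrophil genes came to 0.051%, 0.290% and 3.96% in CD43- replicates 1, 2 and 3, SPN to 1.99%, 1.96% and 3.84%, PTPRC to 0.0417%, 2.06% and 3.87%, and the macrophage markers to 0.815%, 11.5% and 15% of the CD43+ mean. From day 12 to day 16 in CD43- cells, 4.46% of all genes tested were called higher and 5.97% lower. At that step 8 of the 11 neutrophil genes, 5 of 5 megakaryocyte and 5 of 7 erythroid markers rose, and 5 of 9 macrophage markers fell. The part of such blood cells in the CD43- values of the set was not tested.

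**Figure D4:**
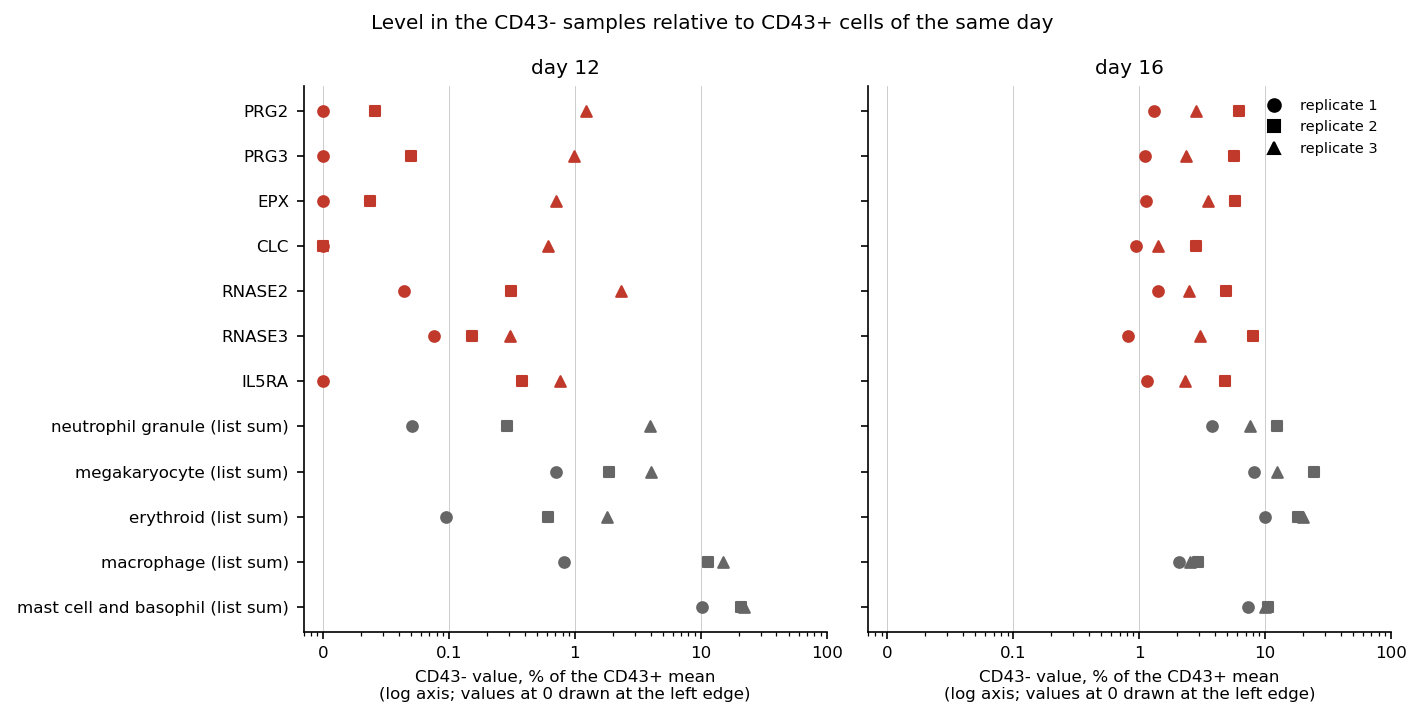
Value in each CD43- sample as a percentage of the mean of the CD43+ samples of the same day (log axis, with 0 drawn at the left edge), for the members (red) and for summed marker lists (grey) on days 12 and 16. The members lie between 0 and 2.34% on day 12 and between 0.814% and 7.99% on day 16, with replicate 2 highest in every member on day 16.

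The replicates of the late CD43+ cells also moved as a block. In day 12 CD43+ cells replicate 1 was the lowest for 7 of 7 members, and in day 16 CD43+/CD45+ cells replicate 2 was the lowest for 7 of 7. The summed macrophage markers were 99217 in day 12 CD43+ replicate 1 against 32874 and 26603 in replicates 2 and 3. C1QC stood there at 14009, 3720 and 2981. The megakaryocyte gene PPBP was 22818, 37170 and 6913 in day 16 replicates 1, 2 and 3, highest in the replicate where the members were lowest. In day 12 CD43+ cells the order was the other way, with PPBP at 2369, 9888 and 5552, lowest in replicate 1, where the members were also lowest. In day 9 CD43+ cells replicate 2 was the highest for PRG2, PRG3, EPX, CLC and IL5RA but lowest for RNASE2. The part of these cell types in the spread of the set was not tested.

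The other genes of the eosinophil programme were counted from lists. Of 12 transcription factors tied to eosinophil development, 3, 7, 5 and 8 passed as higher in CD43+ cells at days 6, 9, 12 and 16, and 1, 2, 2 and 0 as lower. Of all genes tested, 4.69%, 8.65%, 11.8% and 12.2% passed as higher on these days and 7.85%, 12.8%, 14.4% and 13.6% as lower. GATA1, which drives eosinophil commitment as well as red cell and platelet production, stood at 2865, 2616 and 2677 in day 6 CD43+ cells, where CLC, RNASE2 and RNASE3 were listed at 0, and fell by 2.54 ± 0.62 from day 9 to day 12 (adjusted p = 0.00105) while all 7 members rose. Among CD43+ cells GATA1 was 321, 1012 and 782 on day 12 and 1582, 2210 and 870 on day 16, when the members had their highest means. CEBPE, needed for the terminal maturation of granulocytes, was 9, 5 and 8 at day 6 and 99, 169 and 120 at day 9. CEBPE stood at 590, 604 and 680 by day 12 and at 512, 426 and 572 by day 16. Its rise was called at the step to day 9 (3.97 ± 0.59) and at the step to day 12 (2.30 ± 0.59), those at which most of the members rose. CEBPE was not alone in this. IRF8, of the same list, was listed at 0 in day 6 CD43+ cells, at 1179 to 1368 on day 9 and at 4660 to 9728 on day 12. CEBPA rose from day 6 to day 9 (3.64 ± 0.24, adjusted p = 1.53e-11). SPI1, which encodes PU.1, was already at 1553, 1247 and 1332 on day 6.

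Of the 11 listed genes around the shared receptor of interleukin-3, interleukin-5 and GM-CSF, 8 were tested, and 2, 4, 4 and 5 of them were called higher in CD43+ cells on days 6, 9, 12 and 16, and 0, 1, 0 and 1 lower. The shares of all genes were 4.69%, 8.65%, 11.8% and 12.2% higher and 7.85%, 12.8%, 14.4% and 13.6% lower. CSF2RB, the signalling chain that pairs with IL5RA, was 965, 594 and 542 in day 6 CD43+ cells and 1632, 1690 and 1680 on day 9, when IL5RA was 38, 84 and 24. CSF2RB was 4938, 4758 and 5534 on day 16, and it was called higher than in CD43- cells on day 9 (2.33 ± 0.51), day 12 (3.88 ± 0.51) and day 16 (3.18 ± 0.51). The other alpha chain CSF2RA rose from day 9 to day 12 (3.10 ± 0.31, adjusted p = 5.54e-09), together with IL5RA. IL3RA was not called in the CD43 comparison of any day, with differences of -0.61 ± 0.69 on day 6 to 1.03 ± 0.69 on day 12. The genes for the ligands IL5, IL3 and CSF2 were not analysed here.

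The list of surface and other eosinophil genes was mixed. CCR3, the eotaxin receptor, was 8, 13 and 2 in day 12 CD43+ cells and 16, 22 and 40 in day 16 CD43+/CD45+ cells. SIGLEC8, an inhibitory lectin of eosinophils and mast cells, was 75, 70 and 24 and then 138, 97 and 207, and ADGRE1 was 146, 34 and 72 and then 280, 206 and 400. For all 3 the days did not overlap, yet none of the 9 genes tested of the list was called from day 12 to day 16, when ADGRE1 changed by 1.99 ± 0.47 (adjusted p = 0.00133) and missed the fold. SIGLEC10, another inhibitory lectin, was 1742, 1027 and 979 by day 12 and 708, 647 and 1318 by day 16. PTGDR2, a prostaglandin receptor also found on basophils, was already 260, 334 and 319 in day 6 CD43+ cells and was 358, 374 and 290 by day 16. ALOX15, a lipoxygenase, was called lower in CD43+ cells on days 6 and 9 and higher on day 12, and stood at 356, 288 and 374 in day 16 CD43+/CD45+ cells against 323, 396 and 376 in CD43-CD45- cells. Of these 9 genes, 3, 4, 8 and 6 were called higher in CD43+ cells at days 6, 9, 12 and 16, and 1, 1, 0 and 0 lower. The shares of all genes were 4.69%, 8.65%, 11.8% and 12.2% higher and 7.85%, 12.8%, 14.4% and 13.6% lower. Of the eotaxins, the ligands of CCR3, CCL24 was 16, 18 and 42 in day 16 CD43+/CD45+ cells and was called higher than in CD43-CD45- cells, while CCL26 was at most 1 in the late CD43+ cells.

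**Figure D5:**
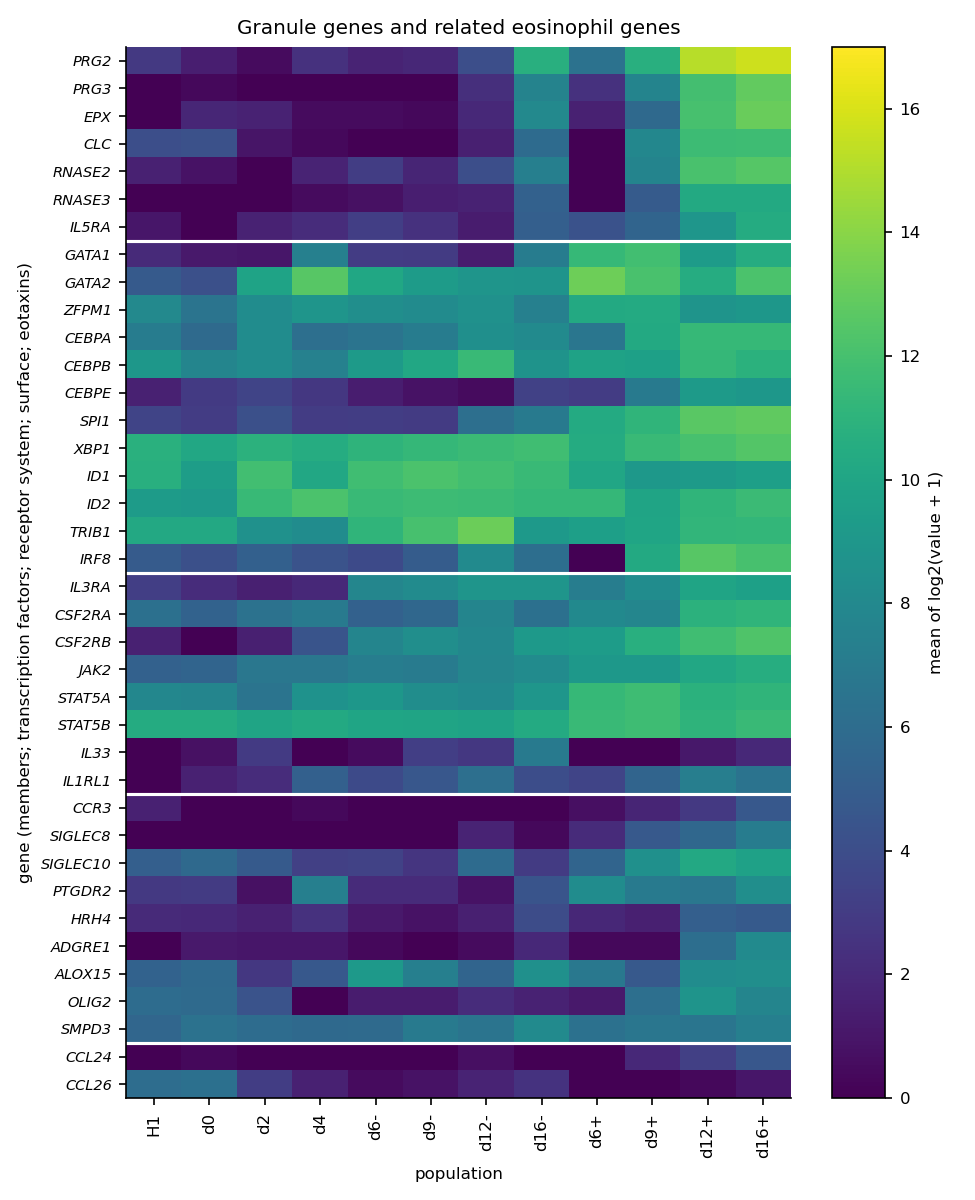
Mean of log2(value + 1) over the samples of each population (colour) for the members and for listed transcription factors, receptor genes, surface genes and eotaxins (rows), by population (columns, with - and + for CD43- and CD43+). GATA1, GATA2 and SPI1 are high in day 6 CD43+ cells, where CLC, RNASE2 and RNASE3 are at 0.

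The gene families of the members were listed as well, and their counts stand against the same shares of all genes. Among 6 tested genes of the ribonuclease A family and its inhibitor, 0, 1, 1 and 2 were called higher in CD43+ cells at days 6, 9, 12 and 16, and 1, 2, 0 and 0 lower, ANG at days 6 and 9 and RNASE4 at day 9. RNASE1, RNASE4 and ANG rose in CD43+ cells from day 12 to day 16, against 3.79% of all genes, a step at which RNASE2 and RNASE3 were not called. In CD43- cells RNASE4 (3.13 ± 0.49) and ANG (2.74 ± 0.40) were called higher at the same step, against 4.46% of all genes, and RNASE1 was not (0.39 ± 0.40). Among the 4 haem peroxidases, MPO and LPO were called higher in CD43+ cells on days 9, 12 and 16, and PXDN, which crosslinks basement membrane collagen, was called lower on each of these days (-2.47 ± 0.23, -2.67 ± 0.23 and -3.22 ± 0.23). MPO, the peroxidase of neutrophils, was 29015, 20412 and 20412 in day 9 CD43+ cells and 90700 in every day 12 and day 16 CD43+ sample. LPO, the lactoperoxidase gene, was 174, 206 and 281 on day 12 and 105, 76 and 104 on day 16. Of 7 tested galectins other than CLC, 1, 1, 2 and 2 were called higher in CD43+ cells at days 6, 9, 12 and 16, with LGALS12 among them each time, and 2, 3, 1 and 0 lower, LGALS2 and LGALS3 among them at days 6 and 9. SRGN, the proteoglycan that holds cationic proteins in granules, stood at 71, 42 and 46 in day 6 CD43+ cells, at 1550, 2054 and 2133 by day 9 and at 48025, 90700 and 90700 by day 12. Of the 6 genes of the granule storage and exocytosis list, 2 were called higher in CD43+ cells on days 9, 12 and 16.

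Markers of other cells that can make these transcripts were present. The summed values of 9 mast cell and basophil markers were 1150 to 2053 in day 12 CD43+ cells and 2596 to 4206 in day 16 CD43+/CD45+ cells. None was at 0 in all samples of either population, but FCER1A and ENPP3 were at 0 in day 12 replicate 2. Of the 9, 3, 5, 6 and 7 were called higher in CD43+ cells on days 6, 9, 12 and 16, and 4 rose in CD43+ cells from day 12 to day 16. All counts of this paragraph stand against 4.69%, 8.65%, 11.8% and 12.2% of all genes called higher on these days. Those called lower were 7.85%, 12.8%, 14.4% and 13.6%, and 3.79% rose in CD43+ cells from day 12 to day 16. The tryptase gene TPSB2 was 44, 50 and 58 and then 408, 231 and 492. The 11 neutrophil granule genes summed to 152507 to 170870 on day 12 and 139342 to 179097 on day 16, with all 11 called higher in CD43+ cells on both days, as were all 9 macrophage and all 5 megakaryocyte markers. The 6 trophoblast markers summed to 498 to 598 in day 12 CD43+ cells and 1738 to 3597 in CD43- cells, and to 179 to 196 and 1243 to 1584 on day 16, when PAPPA2 and CGA were at 0 in CD43+/CD45+ cells. Of the 6, 2, 2, 4 and 3 were called lower in CD43+ cells at days 6, 9, 12 and 16, and 1 higher at day 12. Endothelial markers were never called higher in CD43+ than in CD43- cells (3 of 5 lower on days 9, 12 and 16), and all 7 mesenchymal markers were lower on those days. All 7 erythroid markers were higher in CD43+ cells on days 6, 9 and 12 and fell in them from day 9 to day 12. At that step 6.54% of all genes were called lower. Which cell type in the sorted mixture held the transcripts of the set was not tested.

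Across the mean of each of the 12 populations of log2(value + 1), the members correlated with each other at Pearson's r of 0.795 (CLC and IL5RA) to 0.989 (PRG2 and PRG3). The paralogous pair RNASE2 and RNASE3 reached 0.982. These coefficients describe populations that share the contrast between blood and other cells, and have no test. Among 19787 other genes, those most like PRG2 were CST7 (r = 0.990), CTSG (0.990) and PRG3 (0.989), and those most like PRG3 were CST7 (0.995), DAPP1 (0.989) and PRG2. EPX was closest to BPI (0.983), PRG3 (0.982) and CST7 (0.980). RNASE2 was closest to RNASE3 (0.982), RETN (0.981) and S100A8 (0.977), and RNASE3 to CLEC5A (0.988), RETN (0.987) and S100A8 (0.986). CLC was closest to FPR2 (0.987), OLIG1 (0.977) and P2RY8 (0.976), and IL5RA to SLC5A10 (0.972), CLN3 (0.972) and CTSG (0.969). Several of these, such as CTSG, BPI and S100A8, are genes of neutrophils and monocytes, and no gene of the surface list was among them. Over the 33 single samples 16 of these 21 nearest places were held by the genes named here, and by Spearman's correlation 3 of 21, so the identity of the nearest genes depends on the measure.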

How the data were processed

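The members are the 7 genes named, and the members, gene lists and tests were chosen with earlier results of these data known. RNA-seq reads of H1 cells were aligned by the authors with Bowtie2 and RSEM to Ensembl annotation v81 and normalized with EDASeq (which = full). The submitters' processing notes also name STAR 2.7, bcl2fastq and hg38. What the authors deposited are tag counts normalized for GC content, whole numbers that are not raw counts and are treated here as a score. The deposited table also gives the GC content of each gene in percent, whose making is not given in the sources used here. A count test was therefore not used, although the authors used DESeq2. Sequencing was done at 2 companies, and which samples went to which is not given in the sources used here, so company and group cannot be told apart.

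Values were taken as log2(value + 1) and fitted with limma 3.58.1 (R 4.3.3, empirical Bayes with trend) over 33 samples in 11 populations, for the 19788 genes that reached 10 in 3 or more samples; undifferentiated H1, with 1 sample, was left out of the fit. A gene was called at a Benjamini-Hochberg adjusted p below 0.05 over all genes tested and a fold change above 4, the thresholds of the study. Where a population was listed at 0 in all samples no fold between populations is given in the text. Changes of the CD43 difference between days are still given for such genes, on the log2(value + 1) scale, and depend on the pseudocount. The figure of CD43 differences draws these cases as open points. The fit was tested on simulated data with normal noise, with changes placed only in genes well above 0. That test does not cover changes in genes near 0 or at the top of the scale. Genes named are the members, genes of the lists (eosinophil transcription factors, receptor system, surface genes, eotaxins, ribonucleases, haem peroxidases, galectins and granule storage) and the 3 genes most correlated with each member, while markers of other cell types are given as counts and sums and named where a result turns on them. CCL11, CCL23, IL5, IL3, CSF2, 5 ribonucleases and 6 galectins of the lists were not analysed here. Promoters came from RefSeq and exons from GENCODE 29. Same-numbered CD43+ and CD43- samples deviated together from their population means on day 6 (r of 0.198, 0.109 and 0.199). They also did so on day 12 (0.084, 0.108 and 0.039). With the replicate number as a block, the members called in the CD43 comparison of either day were the same. Alternatives tried were pseudocounts, filters, scaling, variance moderation, samples in the fit, replicate blocks and leaving out each sample.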

Additional observations from a re-analysis of the deposited data

Results flagged for a closer look

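The CD43 difference of a member changed between days, by a limma interaction term past both thresholds, in 13 cases, given here on the log2(value + 1) scale. From day 6 to day 9 it grew by 5.19 for PRG3, 4.44 for EPX, 7.86 for CLC, 8.94 for RNASE2 and 4.23 for RNASE3. Those of CLC, RNASE2, RNASE3 and PRG3 start from populations listed at 0 and depend on the pseudocount. From day 9 to day 12 it grew by 4.57 for EPX, 5.25 for RNASE3 and 4.64 for IL5RA. From day 12 to day 16 the change was -6.00 for PRG2, -4.31 for PRG3, -4.96 for EPX, -4.41 for CLC and -3.60 for RNASE3. With a pseudocount of 0.1 the calls of PRG3 and CLC remained of these 5, and with only the populations compared in the fit that of RNASE3. At this last step CD43- cells rose in all 5, and the CD43+ cells were not called in any of them. The sort changed at the same step, so day and sort cannot be told apart there.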

How the results depend on the processing

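Of 1063 values of single members under the alternatives, 994 kept their direction and their side of the thresholds, 51 lost the call, 18 gained one and none changed direction. With a pseudocount of 10, 1 member was called on day 6 between CD43+ and CD43- cells and 1 between day 6 CD43+ and day 4 cells (3 each with a pseudocount of 1), 0 between day 12 and day 9 CD43- cells (2), and 6 in the change of the difference between days 9 and 12 (3). Of all 19788 genes, 473, 633, 301 and 609 were called higher in these comparisons, against 928, 1345, 895 and 912 with a pseudocount of 1. On day 6, 985 were called lower, against 1553. With a pseudocount of 0.1, 1 was called between day 12 and day 9 CD43- cells and 2 in the change from day 12 to day 16 (5). With only the populations compared in the fit these last were 0 and 1, with fewer samples to estimate the spread. Otherwise the cause was not tested. Between day 12 and day 9 CD43- cells, 915 of all genes were called higher with a pseudocount of 0.1 and 551 with only the populations compared (895). In the change from day 12 to day 16, 397 and 236 were called lower (429). Leaving out single samples gave 1 to 4 members called between day 6 CD43+ and day 4 cells, 0 (without day 12 CD43- replicate 3) to 5 (without day 12 CD43- replicate 1) between day 12 and day 9 CD43- cells, and 1 without day 9 CD43- replicate 1. It gave 3 to 7 in the change from day 9 to day 12, with 7 without day 12 CD43- replicate 3, and 4 to 7 in that from day 12 to day 16. With the replicate block by number, 6 members were called in the change from day 12 to day 16, IL5RA being added (adjusted p = 0.03965), and with the block by day 5, PRG2 being lost (adjusted p = 0.05476); the replicate block changed no other call. Same-numbered samples had correlations of 0.039 to 0.108 on day 12, above all those of different numbers (-0.089 to -0.007). On days 9 and 16 theirs were -0.015 to 0.078 and overlapped those of different numbers. Whether a number marked a shared source was not tested. Depth is unknown, so that a listed 0 sets no upper limit.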
